A study of Homo sapiens with 6 samples.

Results

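The transcription factors described here are 9 regulators of photoreceptor and retinal identity, NRL, NR2E3, PRDM1, RORB, RAX, RAX2, VSX1, SIX3 and SIX6, followed in medulloblastoma cells after OTX2 was targeted. They were chosen by gene symbol from a count table of 50883 genes. Of the 9 symbols, 8 had a row, and NR2E3 was not analysed here. RNA came from D283, an established human cell line derived from medulloblastoma, a malignant tumour of the cerebellum. Every culture was infected with a lentivirus that expressed GFP. In the control group (3 libraries, genotype label control) the virus encoded a non-targeting guide RNA, and in the OTX2 knockout group (3 libraries) it encoded a guide RNA against OTX2. Cells of both groups were collected after 7 days of culture. The 3 libraries of each group came from 1 cell line, so the tests measure the spread between libraries of that line. Whether these were separate infections is not given by the genotype labels. How many cells were edited, and whether GFP-positive cells were sorted or cloned, is not stated in the labels.

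The vertebrate retina forms from an eye field that is specified by homeodomain factors, among them RAX, SIX3 and SIX6. OTX2 and its relative CRX then direct cells to the photoreceptor fate, and RORB acts with OTX2 upstream of NRL, which in turn sets the rod fate and activates NR2E3. PRDM1, also called BLIMP1, stabilises the photoreceptor fate by holding down bipolar cell genes, while VSX1 belongs to bipolar interneurons and RAX2 to photoreceptors. Photoreceptor genes are known to be expressed in a part of medulloblastomas.

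Promoter sequences were taken from RefSeq (GRCh38.p14), where 7 of the 9 factors had an entry. PRDM1, whose RNA fell, and RORB, whose RNA did not pass the test, had 2 windows each. The downstream window of each is shown because it holds a motif read by NRL. The upstream window of each held none of the 4 motifs searched. Each run is the 250 bases before an annotated start, 5′ to 3′ on the strand of the gene, and the start in use in these cells is not known. The PRDM1 window shown lies at chr6:106098691-106098940 on the plus strand, inside an intron of ATG5, and partly over an annotated PRDM1 exon. The RORB window shown lies at chr9:74615284-74615533 on the plus strand, inside an RORB intron. Capitals mark TGCTGA, the core of the element that MAF factors such as NRL recognise, or its reverse complement TCAGCA.
PRDM1: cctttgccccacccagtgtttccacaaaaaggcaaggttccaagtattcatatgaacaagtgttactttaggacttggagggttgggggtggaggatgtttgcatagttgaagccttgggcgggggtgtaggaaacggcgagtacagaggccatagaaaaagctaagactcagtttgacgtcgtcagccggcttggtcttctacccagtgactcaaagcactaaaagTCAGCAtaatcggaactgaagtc
RORB: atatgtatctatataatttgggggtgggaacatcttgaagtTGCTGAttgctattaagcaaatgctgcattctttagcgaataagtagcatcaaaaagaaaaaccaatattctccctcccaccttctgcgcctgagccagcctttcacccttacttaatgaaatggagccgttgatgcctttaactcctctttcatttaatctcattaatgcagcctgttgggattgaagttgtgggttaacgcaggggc
Both strands were searched for 4 motifs, and no 2 matches overlapped. TAATCC, the core read by OTX2 and CRX, was in 0 of the 11 windows of the 7 factors and in 5.62% of all 35116 RefSeq windows of this length. TAATTA, a core read by paired-type homeodomains such as RAX and VSX1, was in 0 of the 11 and in 4.35% of all windows. AGGTCA, a core site of nuclear receptors such as RORB, was in 1 window, of VSX1, and in 12.1% of all. TGCTGA was in 3 windows, those of PRDM1 and RORB shown here and that of SIX6, and in 14.0% of all. In the PRDM1 window it lies 23 bases before the start, on the opposite strand. The windows of NRL held none of the 4 motifs. These matches describe letters in a window and show no binding.

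Total counts per library lay between 54540645 and 62166870, and 3 counts corresponded to 0.0471 to 0.0563 CPM, the count of a gene relative to a library size scaled with TMM factors. Each gene was compared with the quasi-likelihood F test of edgeR, and p-values were adjusted by the Benjamini-Hochberg method. Of 18420 genes that passed the low-count filter, 39.7% changed at an adjusted p under 0.05, with 21.2% called higher and 18.5% called lower in the knockout libraries. Mitochondrially encoded genes took 0.764% of counts in control replicate 1, above the 0.440% to 0.601% of the other 5 libraries. OTX2 RNA was abundant in every library, with 964 ± 48.4 CPM in the controls and 825 ± 61.1 CPM after knockout (SD, n = 3 each), a log2 change of -0.22 (SE 0.06, edgeR adjusted p = 0.00646). Small insertions or deletions need not remove the RNA, so its level says little about whether the gene was disrupted. Of 11 tested markers of medulloblastoma, OTX2 and CRX among them, 9 fell and 1 rose (median log2 change -0.52; 0 rose without control replicate 1 or knockout replicate 2). IMPG2 and NPR3 were abundant, whereas EOMES and LMX1A, factors of the rhombic lip lineage, reached at most 0.377 and 0.0323 CPM. In bulk RNA, fewer cells that express a gene and less RNA per cell cannot be told apart.

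Of the 8 measured factors, 5 passed the low-count filter, 2 of these were called lower and 0 were called higher by edgeR. At an unadjusted p under 0.05 the counts were also 2 and 0, and DESeq2 and limma-voom called 0 higher. NRL and PRDM1 fell, RORB stayed within the spread of its libraries, and SIX3, SIX6, RAX, RAX2 and VSX1 were near the limit of detection. Against the 18.5% of all tested genes called lower, 2 of 5 is too few genes to set the group apart. The groups did not overlap for 9054 tested genes (49.2%), and NRL and PRDM1 were among the 4228 (23.0%) whose knockout values all lay below their control values. Falls of more than 1 on the log2 scale were called for 144 genes (0.782% of those tested), PRDM1 among them, and NRL lay just short of that size.

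NRL, the basic leucine zipper factor that commits photoreceptor precursors to the rod fate, was the most abundant of these factors. It measured 28.8, 31.1 and 26.7 CPM in the control libraries and 13.5, 15.0 and 15.3 CPM in the knockout libraries. The groups lay far apart, and the highest knockout library was below the lowest control. Means were 28.9 ± 2.23 CPM in control and 14.6 ± 0.944 CPM in knockout (SD, n = 3 each), a 1.97-fold fall (log2 change -0.98, SE 0.07, 95% interval -1.13 to -0.84, edgeR adjusted p = 2.62e-08). Of all tested genes, 0.912% had a lower log2 fold change. The libraries of each group varied by 7.71% and 6.46% of the mean, against 2.49% and 3.30% from counting alone. NRL lies on the minus strand of chromosome 14 between 24080107 and 24115014 (GRCh38, GENCODE release 29) and is protein-coding. Of its 3113 exonic bases, 293 (9.41%) overlap DCAF11 on the opposite strand, a gene with 20576 counts over the 6 libraries against 7618 for NRL. Strand-specific counting was not stated, so the NRL count is uncertain. DCAF11 itself was not called (log2 change -0.07, edgeR adjusted p = 0.295).

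PRDM1, a zinc finger repressor, had the larger fold change. It was at 5.72, 4.93 and 4.88 CPM in the 3 controls, against 1.82, 1.28 and 1.93 CPM after knockout. The groups did not overlap, and knockout replicate 2 was the lowest library, with 79 counts against 116 and 122 in its group and 260 to 317 in control. Means were 5.18 ± 0.474 CPM in control and 1.68 ± 0.348 CPM in knockout (SD, n = 3 each), a 3.09-fold fall (log2 change -1.62, SE 0.14, 95% interval -1.92 to -1.33, edgeR adjusted p = 2.13e-07). Of the 18420 tested genes, 24 had a lower log2 change. Spread within the knockout group, at 20.8% of the mean, was larger than the 9.73% expected from counting. PRDM1 is protein-coding and lies on the plus strand of chromosome 6, from 106086320 to 106109939, within the span of ATG5 but with no exonic overlap in GENCODE release 29.

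RORB, the nuclear receptor that acts ahead of NRL in rod precursors, was not called. Its levels were 5.92, 5.72 and 5.61 CPM in the controls and 5.07, 5.90 and 6.76 CPM after knockout. The knockout libraries spanned the control values on both sides, with knockout replicate 1 the lowest and replicate 3 the highest of all 6. The means were 5.75 ± 0.158 and 5.91 ± 0.844 CPM (SD, n = 3 each), and the log2 change was 0.04 (SE 0.10, edgeR adjusted p = 0.795). Its 95% interval ran from -0.18 to 0.26, that is from 0.885 to 1.19 times control, so a fall of the size seen for NRL lies outside it. Libraries varied by 2.75% of the mean in control, where counting alone gives 5.58%, and by 14.3% in knockout, where it gives 5.18%. This gene is protein-coding, on the plus strand of chromosome 9 from 74497365 to 74693177.

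**Figure D1:**
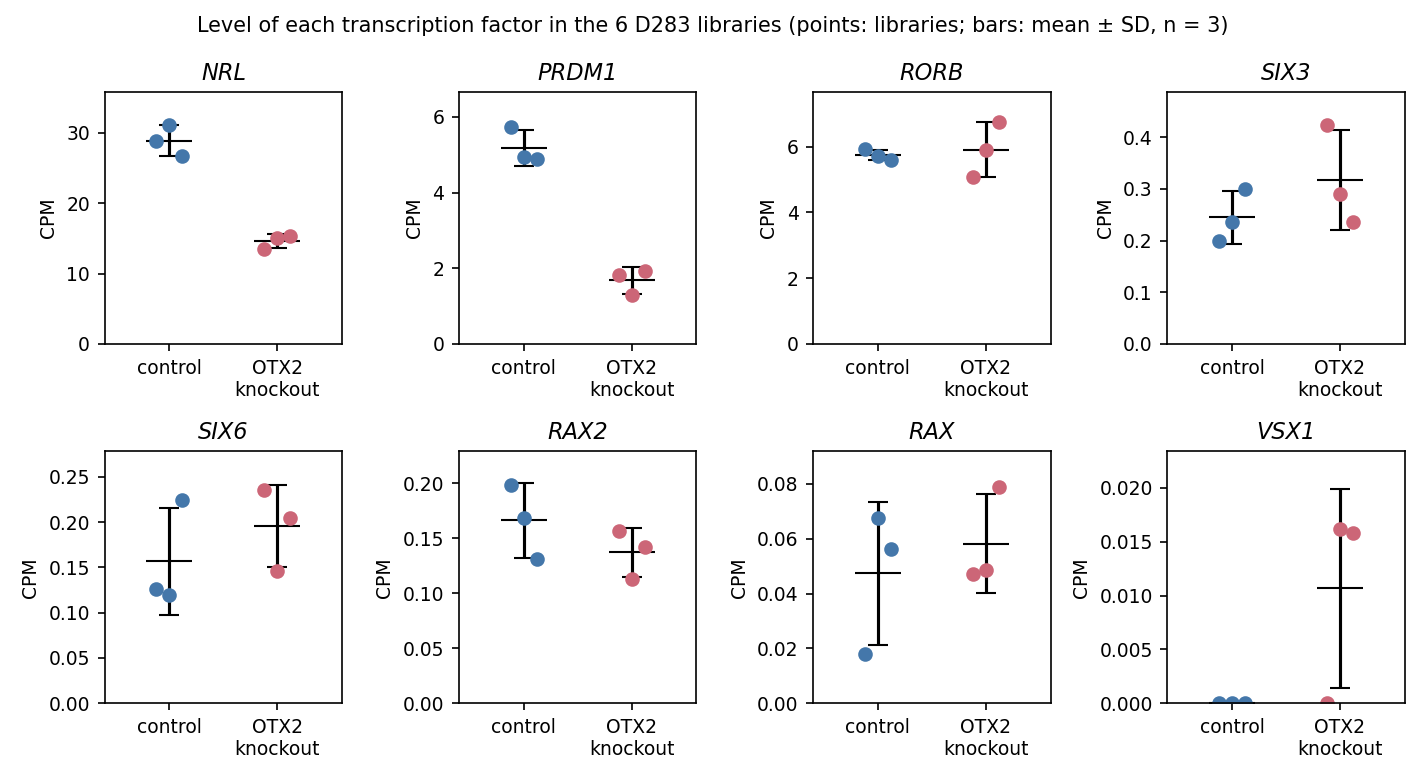
Level of each of the 8 measured factors in CPM (vertical axes, linear from 0, each with its own scale) in 3 control and 3 OTX2 knockout libraries. Points are libraries and bars are the mean ± SD. The groups are apart for NRL and PRDM1 and overlap for the other 6 factors, of which SIX3, SIX6, RAX2, RAX and VSX1 reach at most 0.424 CPM.

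The eye field factors were barely detected in either group. SIX3, a homeodomain factor of the forebrain and eye field, had 11, 14 and 16 counts in the control libraries and 27, 18 and 15 in the knockout libraries. The groups overlapped, with knockout replicate 1 the highest library. The means were 0.245 ± 0.0513 and 0.317 ± 0.0962 CPM (SD, n = 3 each), and the log2 fold change of 0.37 had a 95% interval from -0.31 to 1.06 (edgeR adjusted p = 0.386). SIX6, which acts beside SIX3 in retinal and pituitary progenitors, had 7, 7 and 12 counts in control and 15, 9 and 13 in knockout. Control replicate 3 lay within the range of the knockout libraries. Its log2 fold change was 0.33 (95% interval -0.49 to 1.15, edgeR adjusted p = 0.53). At this depth a 2-fold rise of SIX3 or SIX6 lies inside the intervals, while a fall by more than 1 on the log2 scale lies outside both. RAX, the factor that opens the eye field programme, had 1, 4 and 3 counts in control and 3, 3 and 5 in knockout. Summed over the group, that is 8 and 11 counts, with exact 95% Poisson intervals of 0.0206 to 0.094 CPM and 0.0291 to 0.104 CPM that cover counting error only. A difference in RAX was not detectable at this depth.

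RAX2 and VSX1, homeodomain relatives of RAX in photoreceptors and bipolar cells, also missed the low-count filter. RAX2 had 11, 10 and 7 counts in control and 10, 7 and 9 in knockout. The groups overlapped, with means of 0.166 ± 0.0337 and 0.137 ± 0.0223 CPM (SD, n = 3 each), and the 95% counting interval of the ratio of knockout to control ran from 0.465 to 1.46. VSX1 had 0 counts in all 3 controls and 0, 1 and 1 counts in the knockout libraries. A count of 0 allows up to 3 counts, or 0.0508 to 0.0563 CPM in the control libraries, so both groups were at or under the limit of detection. With no low-count filter, edgeR gave adjusted p-values of 0.845 for RAX, 0.717 for RAX2 and 0.46 for VSX1.

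Levels can be compared between genes only per length, here as CPM per kilobase of exon in GENCODE release 29. In control, NRL came first at 9.28 ± 0.716 CPM per kilobase (SD, n = 3), followed by PRDM1 at 0.81 ± 0.0742 and RORB at 0.6 ± 0.0165. SIX3 came next at 0.0972 ± 0.0203, then RAX2 at 0.0689 ± 0.014 and SIX6 at 0.0562 ± 0.0213, with RAX at 0.0127 ± 0.00698 and VSX1 at 0. The ranges of the 3 libraries overlapped between SIX3 and RAX2 and between RAX2 and SIX6, and between no other neighbours. By CPM alone RORB was above PRDM1 in control (means 5.75 and 5.18, with ranges that overlapped). The control order of PRDM1 and RORB therefore rests on the exon lengths used, 6392 and 9591 bases. The annotation behind the counts was not given. In knockout the order of PRDM1 and RORB per kilobase was exchanged. NRL remained first at 4.7 ± 0.303 CPM per kilobase, RORB was at 0.616 ± 0.088 and PRDM1 at 0.262 ± 0.0545, with ranges that did not overlap, and below them only SIX6 and RAX2 overlapped as neighbours.

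Ratios of counts within a library do not depend on scaling between libraries. For every 100 counts of OTX2, the controls held 2.87, 3.18 and 2.94 counts of NRL, against 1.77, 1.82 and 1.73 after knockout. The mean difference was -0.76 on the log2 scale, and -0.80 for NRL relative to CRX. For every 100 counts of RORB, the controls held 96.6, 86.1 and 87.0 counts of PRDM1, and the knockout libraries 35.9, 21.6 and 28.5. That 3.2-fold shift was the largest of the 9 ratios computed. For every 100 counts of NRL there were 19.9, 15.8 and 18.3 counts of PRDM1 in control and 13.4, 8.51 and 12.6 in knockout, a mean difference of -0.67 on the log2 scale. RORB went the other way relative to OTX2, from 0.591, 0.585 and 0.617 counts per 100 to 0.663, 0.716 and 0.762, and OTX2 RNA itself was lower in knockout. The groups did not overlap in any of the 9 ratios, and each had an exact two-sided permutation p of 0.1 (adjusted p = 0.1 over the 9), the smallest that 3 libraries against 3 can give. The groups were already apart for NRL, PRDM1, OTX2 and CRX taken alone, as for 49.2% of all tested genes. No ratio was free of these genes, so the separation largely restates theirs. The share of all gene pairs that separate was not computed.

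**Figure D2:**
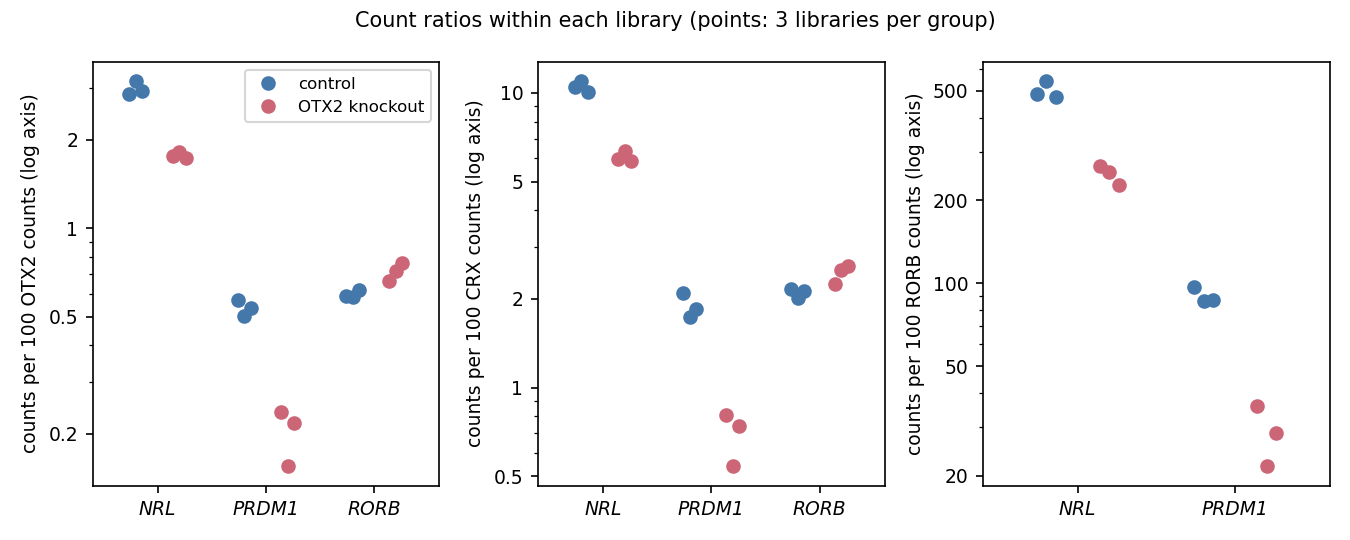
Counts of NRL, PRDM1 and RORB for every 100 counts of OTX2, CRX or RORB in the same library (log axes), 3 control and 3 OTX2 knockout libraries. NRL and PRDM1 lie lower in knockout in each panel, and RORB lies slightly higher relative to OTX2 and CRX.

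Relatives of the factors were compared from a list of 20 close family members, 19 of which were tested. Of these, 7 were called higher (36.8%) and 3 lower (15.8%), against 21.2% and 18.5% of all tested genes. The share of falls was near that of all genes. The median log2 fold change was 0.10, against 0.01 over all tested genes. NRL belongs to the large MAF factors, and its relatives MAFA and MAF went in the opposite direction. MAFA, known from pancreatic beta cells, rose from 0.181 ± 0.0564 to 1.3 ± 0.0826 CPM (SD, n = 3 each; log2 change 2.84, SE 0.24, edgeR adjusted p = 2.15e-07). MAF, known from lens and lymphocytes, rose 3.56-fold (edgeR adjusted p = 0.000347). Control counts were 9, 8 and 13 for MAFA and 11, 6 and 8 for MAF. Both passed the low-count filter only through the knockout libraries, where they were high. In both groups these genes stayed below NRL, which per kilobase of exon was at 4.7 ± 0.303 CPM in knockout against 0.518 ± 0.033 for MAFA and 0.0765 ± 0.0162 for MAF.

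PRDM1 had the lowest log2 change of the PRDM genes plotted here. PRDM8, a repressor needed by some retinal bipolar cells, rose from 0.53 ± 0.084 to 4.38 ± 0.382 CPM (SD, n = 3 each; log2 change 3.04, SE 0.15, edgeR adjusted p = 6.90e-10). PRDM13, a factor of retinal amacrine cells and the dorsal neural tube, fell 1.3-fold. RORA, the relative of RORB, was not called (log2 fold change -0.24, edgeR adjusted p = 0.15), but was called lower without knockout replicate 3 (log2 change -0.42, edgeR adjusted p = 0.00669) and with no low-count filter (0.00523).

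The relatives SIX2, SIX4 and SIX5 were expressed well above SIX3 and SIX6. SIX4 rose 1.44-fold (edgeR adjusted p = 2.81e-06). SIX5 fell 1.34-fold, from 43.9 ± 2.26 to 32.9 ± 2.03 CPM (SD, n = 3 each), though 56.8% of its exonic bases overlap a noncoding gene on the opposite strand, and SIX2 was not called (log2 fold change 0.03). Among 9 tested EYA, DACH and TLE cofactors of these proteins, 5 rose and 2 fell (1 without control replicate 3 or any 1 knockout replicate). The median was 0.32. These are 55.6% and 22.2%, against 21.2% and 18.5% of all tested genes, so the share of falls was near that of all genes. The corepressor TLE4 rose 2.1-fold. EYA1, a phosphatase and coactivator, rose 8.43-fold, but from only 9, 2 and 5 control counts. EYA1 passed the low-count filter only through the knockout libraries. The better expressed EYA2 rose 1.25-fold, and EYA3 was not called.

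**Figure D3:**
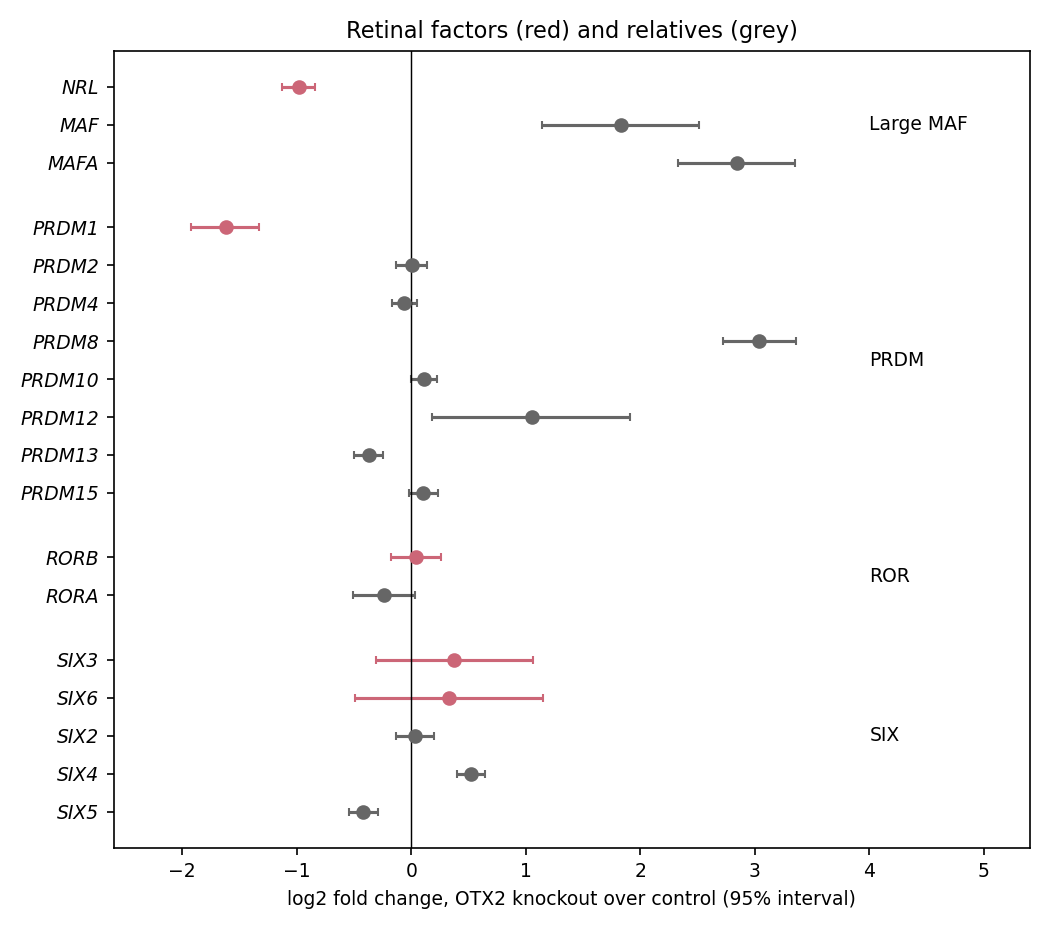
Log2 fold change of OTX2 knockout over control (horizontal axis, points) with its 95% interval (bars) for the 5 tested factors, in red, and tested relatives, in grey. NRL lies at -0.98 while MAF lies at 1.83 and MAFA at 2.84, and PRDM1 at -1.62 is the lowest of the PRDM genes shown.

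Among 12 tested photoreceptor regulators outside the 9, OTX2 and CRX included, 4 rose and 4 fell (median log2 change -0.02). Each share was 33.3%, against 21.2% called higher and 18.5% called lower over all tested genes. ESRRB, which rose here and in the rod list, had 10, 6 and 16 control counts. It passed the low-count filter only through the knockout libraries. CRX, the direct partner of NRL on rod genes, fell by 0.18 on the log2 scale (edgeR adjusted p = 0.0162), which did not pass on library totals alone (edgeR adjusted p = 0.116), at the 0.01 threshold, against a 1.5-fold change, or without control replicate 2 (0.0762), knockout replicate 1 (0.094) or knockout replicate 2 (0.08). THRB, the thyroid hormone receptor of cones, fell 1.33-fold, while the early photoreceptor factors NEUROD1 and ONECUT1 rose 3.57-fold and 2.82-fold. Leaving out control replicate 2 or knockout replicate 2 left 2 falling regulators. Of 12 tested eye field and retinal progenitor factors outside the 9, 6 rose and 0 fell (median 0.31; 1 fell without control replicate 3). DESeq2 and limma-voom also called 0 of these lower, and 1 was lower at an unadjusted p under 0.05. PAX6, which works with RAX and SIX3, rose from 13 counts over the control group to 80 over the knockout group, although 25.2% of its exonic bases overlap ELP4. With 3, 3 and 7 counts in the control libraries, PAX6 passed the low-count filter only through the knockout libraries, where it was high. Of 11 tested factors of retinal interneurons and ganglion cells, 8 rose and 0 fell (median 1.23), PRDM8 and LHX4 among them. LHX4 rose 3.48-fold, with 30.8% of its exonic bases overlapping ACBD6 on the opposite strand. At an unadjusted p under 0.05, or by DESeq2 or limma-voom, 0 of the 11 were lower. IRX5, among the 8 that rose, had 13, 10 and 3 control counts and also passed the filter only through the knockout libraries.

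Lists of genes that photoreceptors and bipolar cells use held more falls than rises. The shares called lower were 37.5% in the rod list, 60.0% in the cone list and 70.0% in the bipolar cell list. Over all tested genes, 21.2% were called higher and 18.5% lower. In the rod list, which holds genes that NRL is known to activate, 6 of 16 tested genes fell and 2 rose (median -0.30). GNGT1, the rod transducin gamma subunit, was at 10.1 ± 0.865 CPM in control and fell to 3.98 ± 0.899 CPM (SD, n = 3 each; log2 change -1.34, SE 0.13, edgeR adjusted p = 7.80e-07), with 44 exonic bases shared with TFPI2. In the cone list 6 of 10 tested genes fell and 1 rose (median -0.67), with PDE6H down 1.91-fold. Of the 6, GNAT2 shares 97.0% of its exonic bases with GNAI3 on the opposite strand (106 counts over the 6 libraries against 56197), GNB3 shares 16.0% with CDCA3 and GNGT2 7.76% with ABI3, so these counts are uncertain. In the bipolar cell list, the fate that PRDM1 is known to hold back, 7 of 10 fell and 0 rose (median -0.74). This list holds no transcription factors, so its falls do not cover those of bipolar cells. Factors of retinal interneurons and ganglion cells were counted in their own list, where 8 of 11 tested rose and 0 fell. Among them PRDM8, needed by some bipolar cells, rose 8.27-fold. LHX4 rose 3.48-fold, BHLHE22 2.72-fold, IRX5 2.38-fold and ISL1 1.37-fold. In the bipolar cell list 1 gene, RGS11, was higher at an unadjusted p under 0.05, and DESeq2 and limma-voom called 0 higher. TRPM1, the channel of ON bipolar cells, fell 3.8-fold.

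**Figure D4:**
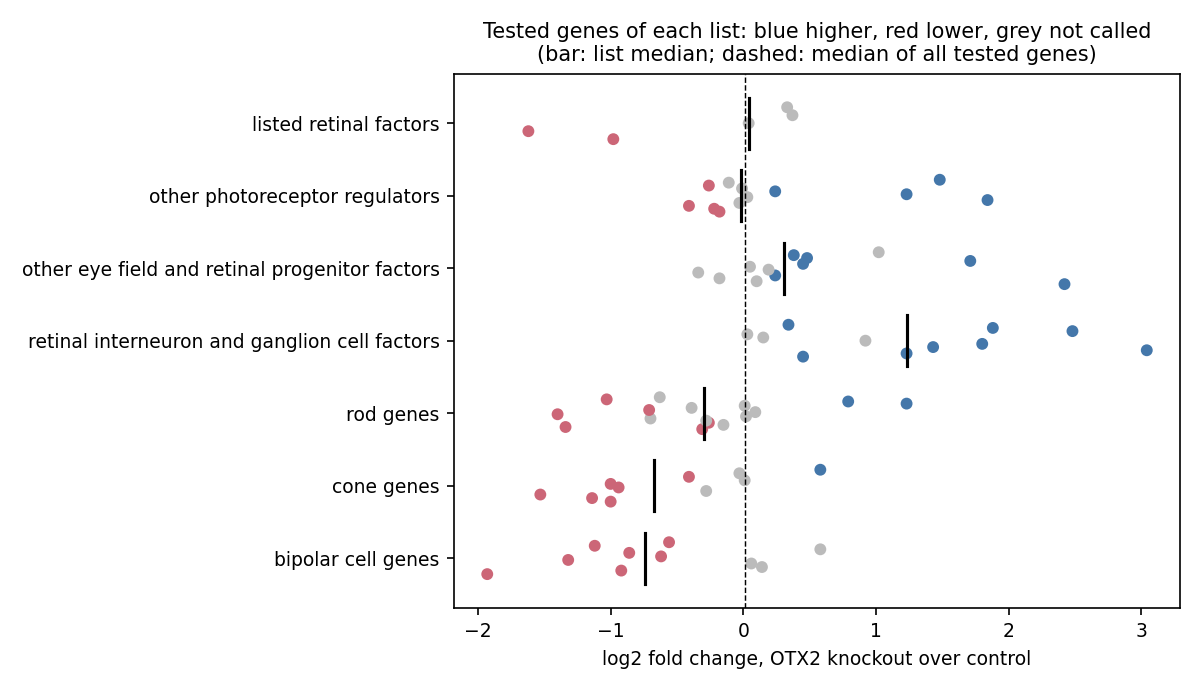
Log2 fold change of each tested gene (points, horizontal axis) in the listed retinal factors and 6 related gene lists. Bars mark list medians, which run from -0.74 for bipolar cell genes to 1.23 for interneuron and ganglion cell factors, and the dashed line marks the median of all tested genes, 0.01.

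Several of these factors also act outside the retina, and markers of those tissues were read beside them. PRDM1 drives plasma cell differentiation. The 10 markers of B and plasma cells summed to between 5.13 and 6.06 CPM in control and between 5.56 and 6.02 CPM in knockout, and the B cell marker MS4A1 was at 0 in every library. Of 6 tested, 0 were called in either direction by edgeR, DESeq2 or limma-voom, and 1, SDC1, was higher at an unadjusted p under 0.05 (1 was called higher without control replicate 3). SIX3, SIX6 and RAX act in hypothalamus and pituitary. The 10 markers of that region summed to 19.0 to 19.6 CPM in control and 21.1 to 21.7 CPM in knockout, with POU1F1, NKX2-1 and GH1 among those at 0, and 1 of 5 tested rose. Markers of retinal pigment epithelium, a tissue that needs OTX2, summed to 26.1 to 30.7 CPM in control and 16.8 to 23.0 CPM in knockout. RPE65 and TYR, 2 of 6 tested, were lower (1 higher without control replicate 1), and MLANA was at 0. RPE65 made up most of the sum, and its mean fell from 24.0 to 14.6 CPM. The other 4 tested markers were not called and had positive log2 changes (BEST1 0.25, PMEL 0.27, RDH5 0.35 and TYRP1 0.7). The list median was 0.26, so the lower sum does not describe the markers as a set. Over all tested genes, 21.2% were called higher and 18.5% lower. The part of these markers in the falls of NRL and PRDM1 was not tested.

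Profiles over the 6 libraries were compared with 12941 other genes of at least 100 counts on average, by the root mean square difference of log2 CPM after subtraction of each control mean. NRL was most like HSD17B2, a steroid dehydrogenase (difference 0.032), and REEP1, a protein that shapes the endoplasmic reticulum (0.056). PRDM1 was most like KIAA1257 (0.163) and RP11-754N21.1 (0.183), matches less close than those of NRL. RORB was most like SMPDL3A (0.036) and PDE11A (0.039), genes with log2 fold changes of 0.01 and 0.04. SIX3 was most like ST8SIA1 (0.132) and TMEM158 (0.14), and SIX6 most like CCDC11 (0.189) and ETV4 (0.207), profiles that rest on few counts.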

How the data were processed

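Total RNA was sequenced from 6 D283 cultures, 3 control and 3 OTX2 knockout by the genotype in the labels. The authors deposited 1 table of unnormalized counts per gene symbol. STAR and hg38 are named per the submitters' processing notes, and the STAR version, the read counter, the annotation, the strand setting and the library kit were not given in the sources used here. All 6 columns matched library titles, and 17682 of 50883 genes had 0 counts everywhere.

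The counts entered edgeR 4.0.16 (R 4.3.3) unchanged: filterByExpr at its defaults (minimum count 10), TMM scaling and the quasi-likelihood F test (glmQLFit, glmQLFTest), with Benjamini-Hochberg adjustment over 18420 genes and a threshold of 0.05. SE is the log2 fold change divided by the square root of F. The tests were tried on simulated data, where DESeq2 at first missed the recovery required of 2-fold changes, the requirement was then lowered, and the share of false calls by edgeR and DESeq2 was above the nominal rate. CPM of every gene used the same scaled library sizes, and fold changes are ratios of mean CPM. Coordinates, exon lengths and overlaps came from GENCODE release 29 on GRCh38. Of 175 entries in 13 gene lists, 170 had a row, 2 through an older symbol.

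The members and lists were chosen with earlier results of these data known. The genes named are OTX2, the members, up to 4 tested genes of each list with the smallest adjusted p, and the 2 genes most like each tested member. Others (among them CRX, EOMES, LMX1A, MAF, RORA, PRDM13, SIX2, SIX5, DCAF11, RGS11 and the neighbouring genes) were chosen after their values were seen, and some genes that the rule or the lists hold are not reported here. Alternatives were other scalings (RLE, upper quartile, library totals), no filter, a filter of 1 CPM in 3 libraries, DESeq2 1.42.0, limma-voom 3.58.1, glmTreat against 1.5-fold, a threshold of 0.01, removal of mitochondrial and ribosomal RNA genes, and leaving out each library.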

Additional observations from a re-analysis of the deposited data

How the results depend on the processing

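NRL and PRDM1 were called lower, and 0 of the listed factors higher, under all 16 alternatives, with log2 fold changes from -1.04 to -0.90 for NRL and from -1.74 to -1.47 for PRDM1. The largest adjusted p was 8.97e-05 for NRL and 8.68e-06 for PRDM1. RORB was called under none (-0.08 to 0.14), nor were SIX3 (0.11 to 0.54) and SIX6 (0.16 to 0.67), which the filter of 1 CPM removed. No paired analysis was possible because the labels give no number shared between the groups.

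Library totals alone moved rises from 53.4% to 71.9% of called genes. They left 2034 falling genes, 2 falling photoreceptor regulators and 1 falling EYA, DACH or TLE cofactor, and gave 1 rising gene each in the bipolar, B cell and pigment epithelium lists. Upper-quartile factors gave 1 rising bipolar gene. With no filter, 1 eye field factor fell, 1 bipolar gene and 1 B cell marker rose, and 5 family members fell. The filter of 1 CPM left 2 rising regulators, 1 rising rod gene, 3 falling bipolar genes and 1 falling pigment epithelium marker, with fewer genes tested. DESeq2 called 1 falling cofactor. Against a 1.5-fold change, glmTreat did not call OTX2 (log2 fold change -0.22, adjusted p = 1.0), and called 1050 genes higher and 157 lower. It left 2 rising and 0 falling regulators, 2 rising eye field factors, 5 rising interneuron factors, 0 rising and 2 falling rod genes, 0 rising cone genes, 3 falling bipolar genes, 0 falling family members, 2 rising and 0 falling cofactors, 0 falling pigment epithelium markers, and 0 rising and 1 falling medulloblastoma markers. At a threshold of 0.01 there were 2 rising and 2 falling regulators, 1 rising rod gene, 1 falling cofactor and 0 rising medulloblastoma markers.

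With each library left out in turn, the ranges were 2 to 4 falling regulators, 0 to 1 falling eye field factors, 1 to 2 falling cofactors, and 0 to 1 rising among B cell, pigment epithelium and medulloblastoma markers. The single falling cofactor arose without control replicate 3 or any knockout replicate. Depth limits what can be said of RAX, RAX2 and VSX1.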

Other observations

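Genes that lie beside the factors on the chromosome were read from the same test, taking for each tested factor the 2 nearest tested protein-coding genes on each side and those that overlap it. Of these 23 genes 6 rose, 8 fell and 9 were not called, and over all tested genes 39.7% changed. PCK2, a mitochondrial enzyme of gluconeogenesis whose span overlaps NRL with no shared exon, fell by 0.67 on the log2 scale (SE 0.07, edgeR adjusted p = 1.69e-06), and DHRS4L2, 73.7 kb from NRL, fell by 0.47 (adjusted p = 0.0073). On the other side, PSME1, a proteasome activator subunit, rose by 0.17 (adjusted p = 0.0356). ATG5, an autophagy factor whose span holds PRDM1, was not called (-0.12, adjusted p = 0.147), and PREP and POPDC3, 683 and 906 kb away, fell by 0.37 and 0.35. QRSL1, 520 kb on the other side, fell by 0.15. SIX2, 59.1 kb from SIX3, was not called (0.03), and SRBD1, 443 kb away, fell by 0.17. SIX4, 197 kb from SIX6, rose by 0.52, DHRS7, 339 kb away, rose by 0.21, and PPM1A, 210 kb away, fell by 0.21. TRPM6, 29.3 kb from RORB, was not called (0.22, edgeR adjusted p = 0.136), while the more distant ANXA1 and TMC1, 1330 and 1660 kb away, rose by 2.0 (edgeR adjusted p = 1.81e-06) and 0.47, and C9orf40, 253 kb away, fell by 0.25.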
